A study of Mus musculus with 18 samples.

Results

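The genes described here are the 9 measured neighbours of the interferon receptor cluster on mouse chromosome 16: Synj1 and Paxbp1 before it, Tmem50b, Dnajc28, Gart, Son, Donson and Cryzl1 after it, and A930006K02Rik, a long non-coding RNA gene between its receptor genes. They were picked by name out of 55385 gene models, for their place on the chromosome, and all 9 passed the filter on low counts. Poly(A) RNA was measured in spleens of 18 adult mice, 6 each of Dp16_2xIFNRs, Dp16 and WT, and each genotype had 3 males and 3 females. Dp16 is a mouse model of trisomy 21 with a duplication on chromosome 16, so that a 22.4 Mb interval, bounded here by the genes Lipi and Zbtb21, is present in 3 instead of 2 copies. Dp16_2xIFNRs mice carry the same extra interval, but their interferon receptor dosage is normalised, that is, Ifnar2, Il10rb, Ifnar1 and Ifngr2 are back at 2 copies. WT mice are C57BL/6J without the duplication. No treatment is given for any group, and whole spleen was used, so fewer cells of a type and less RNA per cell cannot be told apart. The animals' age labels lie between 17.1 and 18.0, on a scale that is named as days from conception and does not suit adults, so the unit is left uninterpreted. The data were used to ask where, along the chromosome, the return to 2 copies begins and where it ends.

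The receptor cluster holds the subunits through which cells sense interferons: Ifnar1 and Ifnar2 form the type I receptor, Ifngr2 is part of the type II receptor, and Il10rb serves the type III interferon and interleukin 10 receptors. The same genes lie side by side on human chromosome 21. The neighbours have no shared pathway. A gene that is present in an extra copy tends to give RNA in proportion to its copies, although feedback and cell composition can move it away from that ratio.

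The 18 libraries held 33998427 to 53021480 counts. Between 0.691% and 5.51% of them fell on Gm42418, a model within ribosomal RNA sequence, and this share was above 4% in 4 libraries. B cell markers summed to 2777 CPM or more in every library, here counts over the library total in ppm without further scaling.

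Along chromosome 16 (GRCm38), the stretch from the start of Synj1 to the end of Cryzl1 runs from 90936092 to 91728975, which is 792.9 kb with 39 gene models. The receptor genes take up 192.8 kb of it, from 91372783 (start of Ifnar2) to 91565623 (end of Ifngr2). Tmem50b (91574503 to 91597800, minus strand) is the nearest well measured gene on the distal side, 8.9 kb past the end of Ifngr2. Dnajc28 lies 48.6 kb past that end, Gart 55.6 kb, Son 81.9 kb, Donson 111.2 kb and Cryzl1 123.7 kb. Paxbp1 (91014037 to 91044543, minus strand) is the nearest well measured gene on the proximal side, 328.2 kb before Ifnar2, and Synj1 lies 361.5 kb before it. A930006K02Rik (91465025 to 91470128, plus strand) lies between Il10rb and Ifnar1.

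On either side of the receptor cluster the nearest genes had Dp16-like levels in Dp16_2xIFNRs spleens, with intervals that left out the ratio of 2 to 3 copies, and the long non-coding RNA within the cluster was the lowest of the 9 relative to Dp16. Tmem50b, a small membrane protein of the secretory pathway, had 48.8, 61.3 and 65.4 CPM (lowest, median and highest; CPM is the count over the library total, scaled by TMM and given in ppm) in Dp16_2xIFNRs, 51.2, 56.9 and 67.9 CPM in Dp16, and 36.3, 40.7 and 46.2 CPM in WT. Both genotypes with the extra interval lay above every WT library and overlapped each other. The fold of Dp16_2xIFNRs over Dp16 was 1.03 (95% interval 0.906 to 1.17, n = 6 each), and this interval leaves out the 0.667 of a return to 2 copies. Ifngr2, its neighbour across the 8.9 kb, had 65.5, 78.1 and 88.3 CPM in Dp16_2xIFNRs, 94.4, 117 and 125 CPM in Dp16, and 81.1, 94.0 and 100 CPM in WT. Here every Dp16_2xIFNRs library lay below every Dp16 library, with a fold of 0.673 (0.599 to 0.756). On this side, the step in level thus lay between Ifngr2 and Tmem50b, whose gene models are 8.9 kb apart. Counts per gene do not show whether the edge itself lies in that gap or within either gene.

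On the proximal side the same step lay between Paxbp1 and Ifnar2, but with a long silent stretch between them. Paxbp1, which binds the muscle transcription factors PAX3 and PAX7, had 57.2, 75.5 and 94.2 CPM in Dp16_2xIFNRs, 68.5, 72.7 and 83.2 CPM in Dp16, and 48.7, 52.3 and 63.2 CPM in WT. The fold of Dp16_2xIFNRs over Dp16 was 1.00 (0.867 to 1.16). The Dp16_2xIFNRs libraries spread over the whole Dp16 range and beyond it on both sides. Ifnar2 had 88.3, 92.4 and 102 CPM in Dp16_2xIFNRs, 134, 139 and 155 CPM in Dp16, and 82.9, 88.8 and 91.1 CPM in WT, a fold of 0.663 (0.609 to 0.723) between the 2 genotypes with the extra interval.

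Within the 328.2 kb between Paxbp1 and Ifnar2 the annotation has 13 gene models, of which 7 had no count in any of the 18 libraries. The oligodendrocyte transcription factor genes Olig2 and Olig1 had 33 and 27 counts in all libraries together, 4932438H23Rik had 52, and none of the 3 was tested. The only tested model, the pseudogene H3f3a-ps2, had 218 counts in all and a log2 fold change of Dp16_2xIFNRs over Dp16 of 0.72 with a 95% interval of -0.56 to 2.01. That interval held equality and only just left out the log2 copy ratio of -0.585, on 4 to 32 counts per library. This pseudogene was therefore not used to place the edge. By the well measured genes in spleen RNA, the proximal step lies between Paxbp1 and Ifnar2 and can be placed no closer. Counts per gene again do not show whether the edge lies between these genes or within either of them.

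**Figure D1:**
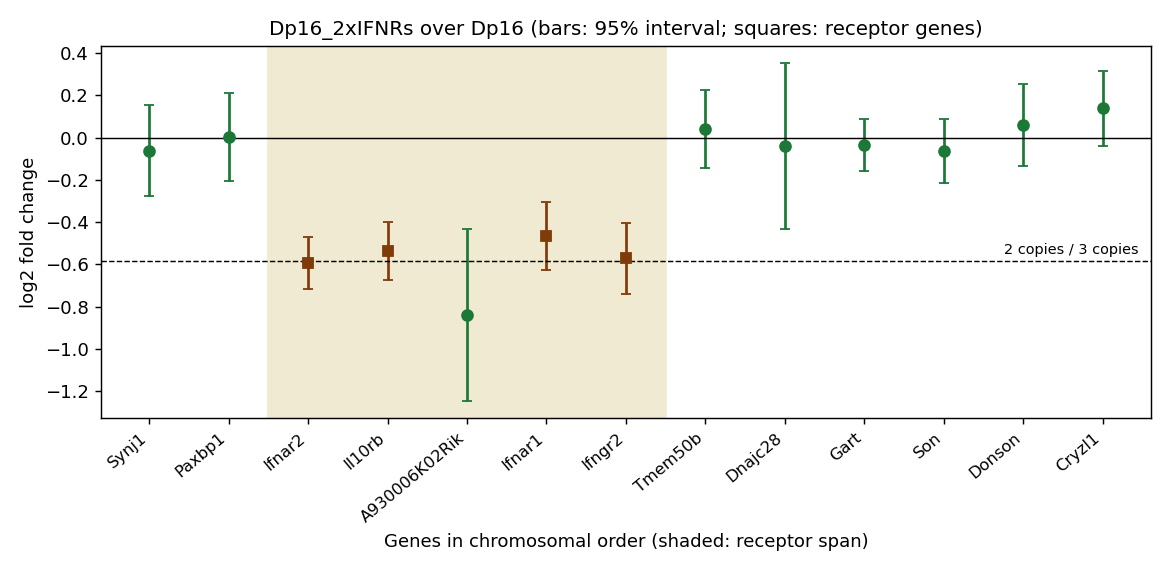
Log2 fold change of Dp16_2xIFNRs over Dp16 (vertical axis) for the 9 genes (circles) and the 4 receptor genes (squares) in chromosomal order; bars are 95% intervals and the dashed line is the ratio of 2 to 3 copies. The 8 genes outside the shaded receptor span sit between -0.06 and 0.14, the receptor genes between -0.59 and -0.46, and A930006K02Rik at -0.84.

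A930006K02Rik is the only one of the 9 that lies inside the receptor span, and no function is given for it in the sources used here. Its level was 2.65, 3.83 and 4.79 CPM in Dp16_2xIFNRs, 4.36, 7.08 and 8.22 CPM in Dp16, and 2.80, 3.00 and 4.90 CPM in WT. The counts behind these were 105 to 214, 187 to 344 and 112 to 246 per library. Of the 6 Dp16 libraries, 4 lay at 6.96 to 8.22 CPM, above all others, and 2 (replicates 5 and 6) at 4.36 and 4.84 CPM, beside the highest Dp16_2xIFNRs library at 4.79 CPM. These 2 are also the Dp16 libraries whose age label is 17.1. The log2 fold change of Dp16_2xIFNRs over Dp16 was -0.84 ± 0.20 (SE), a fold of 0.559 (0.422 to 0.742). Its unadjusted p of 0.000325 was the fifth smallest of all tested genes, behind the 4 receptors, and its adjusted p was 1, so it was not called (edgeR quasi-likelihood test with Benjamini-Hochberg adjustment). The 95% interval holds the ratio of 2 to 3 copies and leaves out equality. Over WT the fold was 1.09 (0.823 to 1.45, adjusted p = 0.687) in Dp16_2xIFNRs and 1.95 (1.47 to 2.59, adjusted p = 0.000883) in Dp16. Without the 3 libraries of age label 17.1 the log2 fold change of Dp16_2xIFNRs over Dp16 was -1.03 (adjusted p = 0.259). Its exons share 149 bases with Gm49626, a pseudogene on the same strand that had 22 counts in all libraries together.

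The span holds 2 other tested models, both with few counts. The pseudogene Gm7860, between Ifnar1 and Ifngr2, had 5 to 31 counts per library. Its log2 fold change of Dp16_2xIFNRs over Dp16 was -0.25 (-1.18 to 0.67), which holds both equality and the copy ratio. Over WT it was at 1.04 in Dp16_2xIFNRs (unadjusted p = 0.033, adjusted p = 0.0893 by edgeR) and at 1.29 in Dp16 (adjusted p = 0.0365 by edgeR), so its mean in Dp16_2xIFNRs was 2.05 times that of WT. The non-coding model Gm49625, between Il10rb and A930006K02Rik, had 0 to 34 counts per library and was at -1.07 (-3.14 to 1.00) relative to Dp16.

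**Figure D2:**
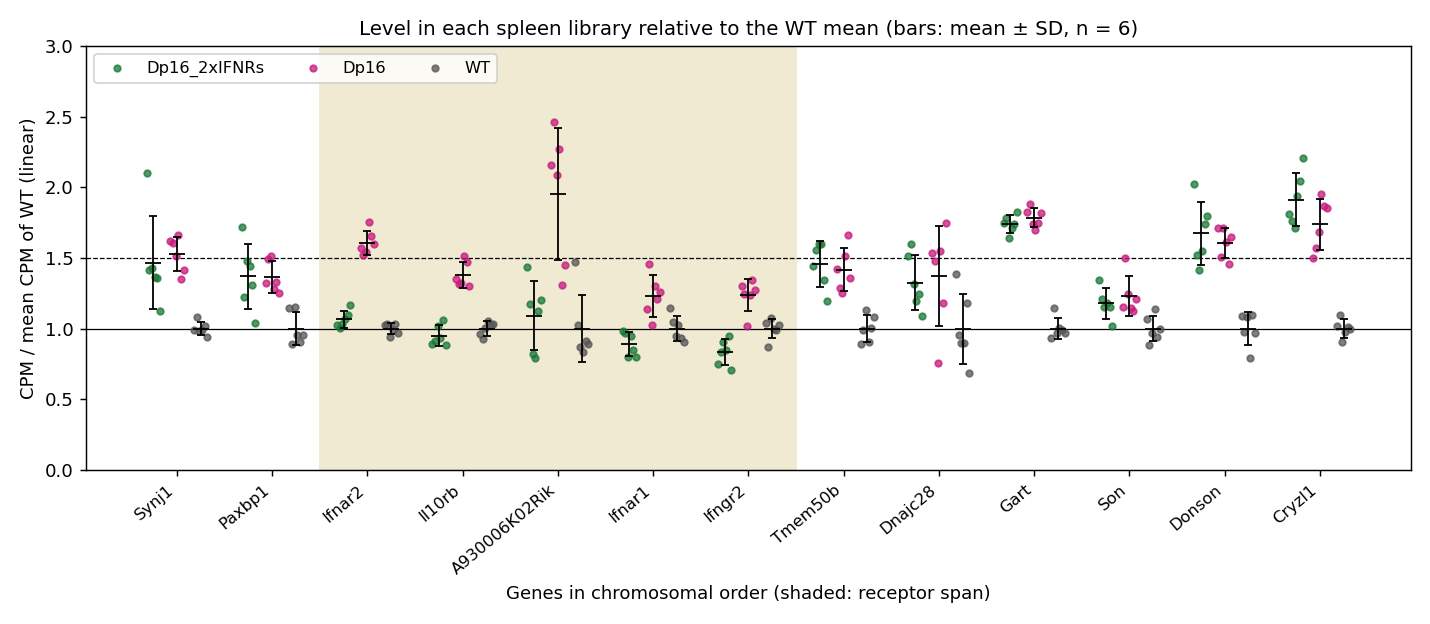
CPM of each library divided by the mean CPM of WT (vertical axis, linear) for the 13 genes in chromosomal order, with Dp16_2xIFNRs, Dp16 and WT side by side; points are libraries, bars are mean ± SD (n = 6), and lines mark 1 and 1.5. Of the plotted genes, the 5 within the shaded receptor span have Dp16_2xIFNRs means 0.831 to 1.09 times those of WT, and the 8 outside it have means 1.18 to 1.91 times those of WT, beside the Dp16 points.

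Across all tests between Dp16_2xIFNRs and Dp16, 0 of the 9 genes were called, against 4 of 18634 genes in all (0.0215%), and those 4 were the receptors, all lower. The call of Ifnar1 was the least stable of the 4: it was lost in 21 of 39 other settings of the fit, among them 10 of the 18 that leave out 1 library, with adjusted p up to 0.14 there, while its log2 fold change stayed between -0.53 and -0.39. DESeq2, limma voom and limma-trend on RPKM also called 0 of the 9. At an unadjusted p under 0.05 there was 1 of the 9 (A930006K02Rik), against 438 of all genes (2.35%). The 95% intervals of all 8 genes outside the receptor span held equality and left out the ratio of 2 to 3 copies, and those of all 4 receptors held that ratio. For 0 of the 9 genes did the 2 genotypes lie fully apart, which they did for 0.0859% of all tested genes. The 8 genes had a median log2 fold change of -0.02, against -0.56 for the receptors, 0.01 for the 100 other tested genes of the interval and 0.00 for all tested genes. Over the 39 other settings, the 8 genes ranged from -0.27 (Synj1) to 0.31 (Cryzl1).

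Both extremes came from the fit with a code from the library descriptions as a block, and in it the picture near the edges was less even. The labels do not say what this code means. Of its 12 values, 5 are shared by libraries of different genotypes. Each of the others belongs to a single library, which its own term fits, so that library adds nothing to the genotype differences. Among these libraries are Dp16_2xIFNRs replicate 1 and Dp16 replicates 4, 5 and 6. Replicates 5 and 6 are the low Dp16 libraries of A930006K02Rik. With it as a block, 4 of the 9 genes had an unadjusted p under 0.05 between Dp16_2xIFNRs and Dp16, against 5.31% of all genes in that fit, and 0 genes were called. Synj1 was at -0.27 (-0.47 to -0.08), Paxbp1 at -0.24 (-0.47 to -0.02) and Cryzl1 at 0.31 (0.09 to 0.53), so that their intervals left out equality as well as the copy ratio. A930006K02Rik was at -1.11 (-1.63 to -0.59), below the copy ratio. The other 5 genes kept intervals that held equality and left out the copy ratio. The receptors were at -0.57 to -0.43 with intervals that held the copy ratio, and their adjusted p was 0.251 to 0.687 by edgeR.

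The other genes outside the span also had intervals around equality. The interval was widest for Dnajc28, a member of the J-domain cochaperone family, which had 197 to 384 counts per library in Dp16_2xIFNRs, 136 to 327 in Dp16 and 153 to 310 in WT. Its fold of Dp16_2xIFNRs over Dp16 was 0.972 (0.740 to 1.28). It was narrowest for Gart, which encodes a multifunctional enzyme of purine synthesis, at 0.975 (0.895 to 1.06). Son, a splicing cofactor of nuclear speckles, was at 0.957 (0.862 to 1.06), and Donson, which helps to assemble the replicative helicase, at 1.04 (0.910 to 1.19). Cryzl1, a quinone oxidoreductase-like protein and the gene farthest out on the distal side, was at 1.10 (0.973 to 1.24). Synj1, a phosphatase that helps to uncoat clathrin-coated vesicles, was at 0.957 (0.824 to 1.11) and had 1 library apart from its group, Dp16_2xIFNRs replicate 1 at 89.5 CPM against 48.1 to 61.1 CPM in the other 5. Without that library its log2 fold change was -0.19.

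The step at each edge was also tested within libraries, as the log2 ratio of the counts of neighbouring genes, which does not depend on how libraries are scaled. Along the 13 genes there are 12 adjacent pairs, and an exact permutation test (two-sided, 924 arrangements) compared each ratio between Dp16_2xIFNRs and Dp16, with p adjusted over the 12 pairs. These tests were chosen after the values were seen. The ratio differed for 2 of the 12 pairs, and these were the 2 pairs that straddle the edges. Tmem50b over Ifngr2 was -0.38 ± 0.17 in Dp16_2xIFNRs and -0.99 ± 0.12 in Dp16 (SD, n = 6 each), a difference of 0.61 with exact p = 0.00216, the smallest the test can give, and adjusted p = 0.026. Ifnar2 over Paxbp1 was 0.34 ± 0.30 in Dp16_2xIFNRs and 0.92 ± 0.18 in Dp16, a difference of -0.58 (exact p = 0.00649, adjusted p = 0.039). The 2 differences are close to the log2 copy ratio of 0.585 in size. The ratios of A930006K02Rik to the receptor genes on its sides did not pass: over Il10rb it differed by -0.30 (exact p = 0.223, adjusted p = 0.591), and Ifnar1 over it by 0.37 (exact p = 0.0974, adjusted p = 0.39).

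With any 1 library left out, the 2 edge differences ran from 0.58 to 0.67 for Tmem50b over Ifngr2 and from -0.69 to -0.51 for Ifnar2 over Paxbp1, while the exact test has fewer splits. Both then missed the threshold without Dp16 replicate 1, 4, 5 or 6, and Ifnar2 over Paxbp1 also without Dp16_2xIFNRs replicate 1, 2, 3, 4 or 5, each time at an adjusted p of 0.052 by exact permutation. Without the 4 libraries rich in Gm42418 the differences were 0.66 for Tmem50b over Ifngr2 and -0.71 for Ifnar2 over Paxbp1 (adjusted p = 0.0952 for both by exact permutation). Without the 3 of age label 17.1 they were 0.62 (adjusted p = 0.0571 by exact permutation) and -0.54 (adjusted p = 0.0952).

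**Figure D3:**
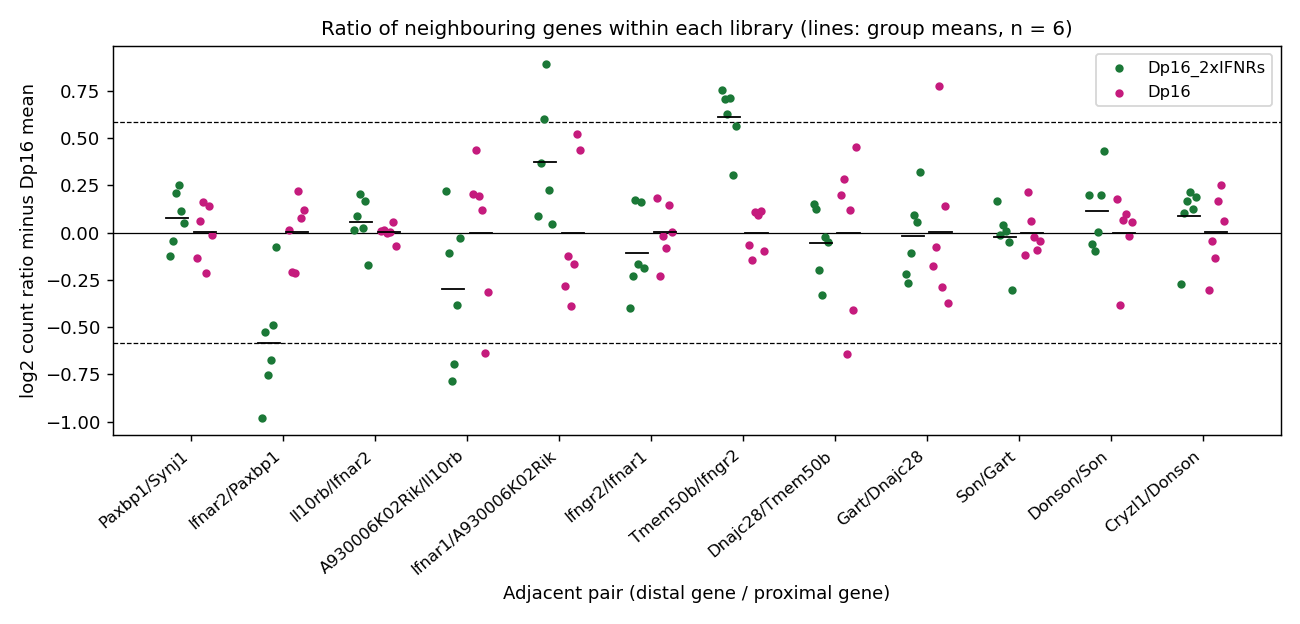
Log2 count ratio of each adjacent gene pair, distal gene over proximal gene, in each Dp16_2xIFNRs and Dp16 library, set to a Dp16 mean of 0 (vertical axis); short lines are group means (n = 6) and dashed lines the log2 copy ratio up and down. The Dp16_2xIFNRs mean is -0.58 at Ifnar2/Paxbp1 and 0.61 at Tmem50b/Ifngr2.

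The sequence around these start sites is shown for Paxbp1 and Tmem50b, the flanking gene at each edge, for the enclosed RNA and for Gart, whose start lies 554 bases from that of Son on the other strand. All 9 genes are in the RefSeq promoter table (GRCm38.p6), which holds 250 bases before to 50 after each start. The stretches below are the part of that window that lies before every GENCODE exon of the gene, 5′ to 3′ on the gene's own strand. Capitals mark CCAAT (the CCAAT box), the GC box GGGCGG, the ETS-type letters CCGGAAGT, the STAT-type letters TTCNNNGAA or the core of the interferon-stimulated response element (GAAA, any 2 bases, then GAAA), searched on both strands. No match overlaps another.
Paxbp1: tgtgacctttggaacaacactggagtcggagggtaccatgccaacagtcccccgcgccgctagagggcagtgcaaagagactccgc
A930006K02Rik: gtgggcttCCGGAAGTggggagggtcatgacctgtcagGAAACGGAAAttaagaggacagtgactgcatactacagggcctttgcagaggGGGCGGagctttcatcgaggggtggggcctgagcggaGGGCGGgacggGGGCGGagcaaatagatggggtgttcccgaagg
Tmem50b: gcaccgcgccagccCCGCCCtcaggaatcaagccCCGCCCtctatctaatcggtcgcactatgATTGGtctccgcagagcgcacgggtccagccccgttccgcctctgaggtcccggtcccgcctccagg
Gart: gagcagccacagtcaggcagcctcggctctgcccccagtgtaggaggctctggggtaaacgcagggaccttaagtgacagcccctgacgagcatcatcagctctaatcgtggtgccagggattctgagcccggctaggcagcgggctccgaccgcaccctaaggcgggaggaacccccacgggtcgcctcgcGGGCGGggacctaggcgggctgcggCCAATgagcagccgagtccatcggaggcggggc
They lie on chromosome 16 at 91044544 to 91044629 (Paxbp1, 86 bases, minus strand), 91464854 to 91465024 (A930006K02Rik, 171 bases, plus strand), 91597801 to 91597930 (Tmem50b, 130 bases, minus strand) and 91646973 to 91647222 (Gart, 250 bases, minus strand). The A930006K02Rik stretch has 3 matches of GGGCGG, 1 of CCGGAAGT and 1 of the response element core. Each stretch was compared with the same number of bases of 32851 promoter windows, counted from the end farthest before the RefSeq start. For 171 bases this leaves out the part nearest that start. In these windows GGGCGG was present in 19.6%, CCGGAAGT in 1.0% and the response element core in 2.1%. The Tmem50b stretch has 2 matches of GGGCGG and 1 of CCAAT, letters present in 14.0% and 17.5% of promoter windows of its length. The Gart stretch has 1 match of each, against 32.7% and 33.8%, and the Paxbp1 stretch holds none of the 5. TTCNNNGAA was in none of the 4 stretches and in 2.5% to 7.0% of windows of these lengths.

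Apart from the 4 receptors, no gene of the interval was called between Dp16_2xIFNRs and Dp16. The other listed neighbours had 10 tested genes on the proximal side, with log2 fold changes of Dp16_2xIFNRs over Dp16 from -0.54 to 0.13. On the distal side 10 ran from -0.12 to 0.29, and no gene of either side was called. All of these tested genes lie farther out except 4930404I05Rik, which overlaps both Synj1 and Paxbp1. The 95% interval left out the ratio of 2 to 3 copies for 6 of the proximal and all 10 of the distal genes. The 4 for which it did not, Hunk, Mrap, Eva1c and 4930404I05Rik, had standard errors of 0.21 to 0.99. Itsn1, an endocytic scaffold gene that starts 306 bases from Cryzl1 on the other strand, was at 0.07 ± 0.17 (SE), and Cfap298, a cilia gene just before Synj1, at 0.13 ± 0.10. Of the 100 other tested genes of the interval, 0 were called and 0 had an unadjusted p under 0.05 (edgeR quasi-likelihood test). The smallest p values among them were 0.0501 for E330011O21Rik, 0.0597 for Gm15964 and 0.0603 for Gm32461.

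Gm15964 is a non-coding gene model on the strand opposite to Dnajc28 and Gart. It shares 1014 bases of exon with Gart, and since no source used here gives the strand mode of the gene counts, its reads and those of Gart cannot be told apart with certainty. Its log2 fold change of Dp16_2xIFNRs over Dp16 was -0.63 (-1.29 to 0.03), an interval that holds both equality and the copy ratio. The same holds for Gm10785, the antisense model at Cryzl1, at -0.25 (-0.80 to 0.30). Over WT Gm15964 was at 0.33 in Dp16_2xIFNRs (adjusted p = 0.48) and at 0.96 in Dp16 (adjusted p = 0.0256). The Dp16 call was lost without 6 single libraries, WT replicate 1, 2 or 4 or Dp16 replicate 2, 4 or 5, with adjusted p up to 0.082.

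**Figure D4:**
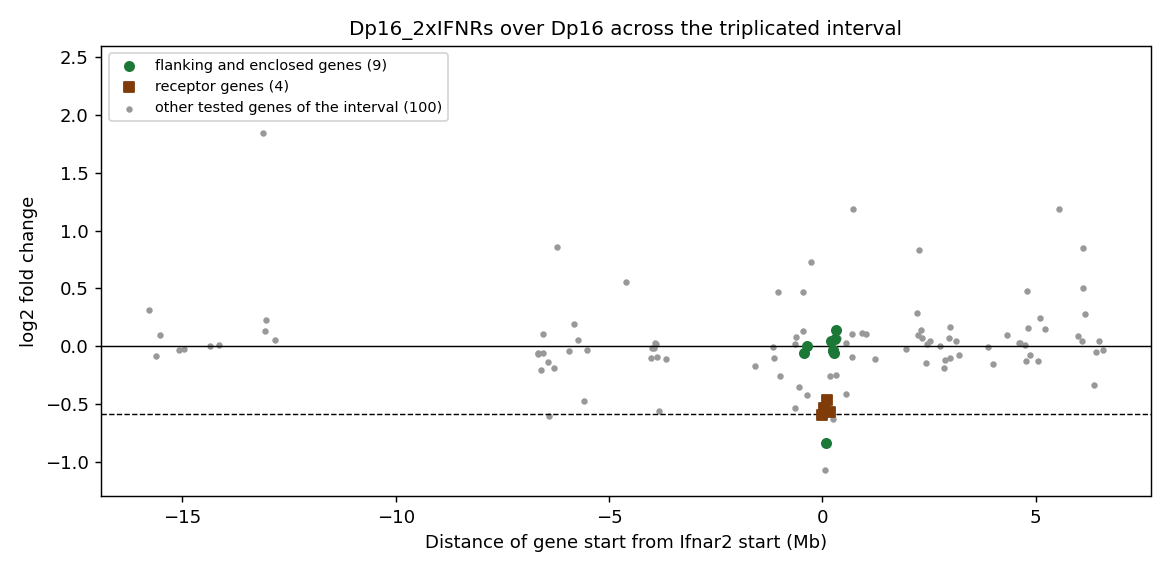
Log2 fold change of Dp16_2xIFNRs over Dp16 (vertical axis) for the 113 tested genes of the triplicated interval against the distance of the gene start from that of Ifnar2 in Mb; the dashed line is the ratio of 2 to 3 copies. The 4 receptor genes (squares) and A930006K02Rik lie at or below -0.46, the other 8 genes of the locus (circles) near 0, and the scattered grey points far from 0 belong to genes that were not called.

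Against WT, 7 of the 8 genes outside the span were called higher in each genotype that carries the extra interval, all but Dnajc28, and not all by the copy ratio of 1.5. In Dp16_2xIFNRs, 7 of the 9 were called higher, against 17.3% of all tested genes called higher and 14.2% called lower. In Dp16, 8 of the 9 were called higher, against 16.6% called higher and 13.2% called lower. The Dp16 and Dp16_2xIFNRs comparisons share the WT libraries. The 8 genes outside the span had a median log2 fold change of 0.54 in Dp16_2xIFNRs and 0.56 in Dp16, against 0.56 and 0.50 for the 100 other genes of the interval and -0.01 for all tested genes in both comparisons.

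Cryzl1 and Gart lay above the copy ratio. Cryzl1 had 33.4, 36.5 and 43.0 CPM in Dp16_2xIFNRs, 29.2, 34.5 and 38.1 CPM in Dp16, and 17.6, 19.5 and 21.4 CPM in WT. Its folds were 1.91 (1.69 to 2.16, adjusted p = 4.92e-07) in Dp16_2xIFNRs and 1.74 (1.53 to 1.97, adjusted p = 2.76e-06) in Dp16. Gart had 145, 154 and 161 CPM in Dp16_2xIFNRs, 150, 157 and 166 CPM in Dp16, and 81.9, 86.2 and 101 CPM in WT. Its folds were 1.74 (1.60 to 1.90, adjusted p = 6.93e-08) and 1.79 (1.64 to 1.95, adjusted p = 2.3e-08). For both genes every library of either genotype lay above every WT library.

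Donson, Synj1, Tmem50b and Paxbp1 had intervals that held the copy ratio. Donson had 41.6, 48.3 and 59.4 CPM in Dp16_2xIFNRs, 42.7, 47.9 and 50.3 CPM in Dp16, and 23.2, 30.2 and 32.2 CPM in WT, folds of 1.67 and 1.61. The Synj1 folds were 1.46 (adjusted p = 0.000486) in Dp16_2xIFNRs and 1.52 (adjusted p = 0.000214) in Dp16. Those of Tmem50b were 1.46 and 1.42, with the Dp16 call lost with the description code as a block (log2 fold change 0.44, adjusted p = 0.0572 by edgeR), and those of Paxbp1 1.37 in both. The receptor genes Ifngr2 and Ifnar1 were at 1.24 and 1.23 in Dp16, below the copy ratio, and Ifngr2 was lower in Dp16_2xIFNRs than in WT, at 0.831 (adjusted p = 0.0147 by edgeR). Apart from Paxbp1 in Dp16_2xIFNRs, neither genotype overlapped WT for Donson, Synj1, Tmem50b or Paxbp1. In all, groups lay fully apart from WT for 5 of the 9 genes in Dp16_2xIFNRs and for 6 in Dp16, against 12.6% and 12.8% of all tested genes with groups as fully apart. The shares of all genes called by edgeR in either direction, another measure, were 31.4% and 29.8%. Exons of Paxbp1 share 1142 bases with the antisense model 4930404I05Rik, which had 143 counts in all libraries together, and those of Cryzl1 share 444 bases with the antisense model Gm10785, which had 1056.

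Son and Dnajc28 had the smallest folds over WT among the 8. Son, the most abundant of the 9, had 425, 489 and 563 CPM in Dp16_2xIFNRs, 470, 494 and 627 CPM in Dp16, and 370, 412 and 476.1 CPM in WT. The groups overlapped, and the folds of 1.18 (1.06 to 1.31, adjusted p = 0.0154) in Dp16_2xIFNRs and 1.23 (1.11 to 1.37, adjusted p = 0.00335) in Dp16 lay below the copy ratio. The Dp16 call was lost on log2 RPKM, where the library total sets the scale (adjusted p = 0.0856 by limma). The Dp16_2xIFNRs call was lost there too (adjusted p = 0.258 by limma), with upper quartile scaling (adjusted p = 0.0876 by edgeR), without a filter on low counts (adjusted p = 0.0524 by edgeR) and with the description code as a block (adjusted p = 0.149 by edgeR). Dnajc28 had 4.85, 5.70 and 7.11 CPM in Dp16_2xIFNRs, 3.37, 6.71 and 7.79 CPM in Dp16, and 3.05, 4.13 and 6.18 CPM in WT. Its folds of 1.32 (1.01 to 1.74, adjusted p = 0.113) and 1.36 (1.04 to 1.79, adjusted p = 0.084) did not pass. The Dp16 value passed without Dp16 replicate 3, its lowest library (adjusted p = 0.0187 by edgeR), and without WT replicate 1 (adjusted p = 0.0425). With the description code as a block the Dp16_2xIFNRs value passed, at a log2 fold change of 0.68 (adjusted p = 0.0443 by edgeR), and the Dp16 value of 0.58 did not (adjusted p = 0.205).

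**Figure D5:**
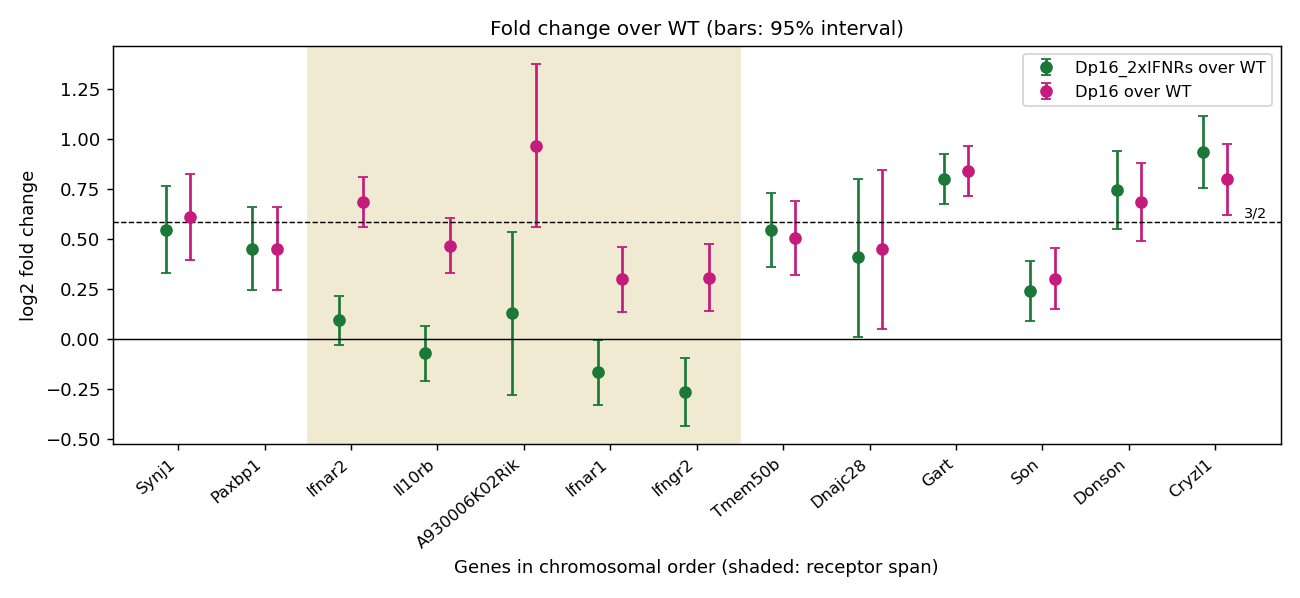
Log2 fold change over WT (vertical axis) of Dp16_2xIFNRs and of Dp16 for the 13 genes in chromosomal order; bars are 95% intervals and the dashed line is the ratio of 3 to 2 copies. Outside the shaded receptor span the 2 genotypes sit together, from 0.24 and 0.30 at Son to 0.93 and 0.80 at Cryzl1, and within it the plotted Dp16_2xIFNRs values lie between -0.27 and 0.13.

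Gart and Son, whose starts face away from each other, differed in the size of their change over WT. The log2 ratio of Son over Gart counts was 1.68 ± 0.15 in Dp16_2xIFNRs and 2.25 ± 0.21 in WT (SD, n = 6 each). The difference was -0.57, with p = 0.00216 by exact permutation and 0.00866 after adjustment over the 12 pairs. It was 1.70 ± 0.12 in Dp16, which is -0.54 relative to WT (p = 0.00433 by exact permutation, 0.026 after adjustment). In all, 3 of the 12 pairs differed between Dp16_2xIFNRs and WT and 4 between Dp16 and WT. Of the edge pairs, Tmem50b over Ifngr2 differed between Dp16_2xIFNRs and WT by 0.81 (adjusted p = 0.00866 by exact permutation). Ifnar2 over Paxbp1 did not pass there, at -0.35 (adjusted p = 0.114 by exact permutation). Between Dp16 and WT, 2 pairs within the receptor span passed by exact permutation. These were Il10rb over Ifnar2 (-0.22, adjusted p = 0.026) and Ifnar1 over A930006K02Rik (-0.66, adjusted p = 0.039). Without the libraries rich in Gm42418, or without those of age label 17.1, 0 passed between Dp16 and WT, where fewer libraries leave fewer arrangements. The difference of Son over Gart was then -0.57 (adjusted p = 0.0635 by exact permutation) and -0.52 (adjusted p = 0.0714 by exact permutation). On the other side of Son, the log2 ratio of Donson over Son was higher than in WT by 0.51 in Dp16_2xIFNRs (exact permutation p = 0.00216, adjusted p = 0.00866) and by 0.39 in Dp16 (exact permutation p = 0.0108, adjusted p = 0.039). Son and Donson share 103 bases at their ends on opposite strands. With 1 library left out, the Donson over Son difference of Dp16 was 0.29 to 0.47 and its adjusted p was up to 0.0844 by exact permutation, above the threshold without Dp16 replicate 1, 3, 4, 5 or 6 or WT replicate 3, 4 or 6. It was 0.37 (adjusted p = 0.0635 by exact permutation) when the 4 libraries with much Gm42418 were left out, and 0.43 (adjusted p = 0.152 by exact permutation) when those of age label 17.1 were.

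The pathways in which these genes work were followed by lists of their partners elsewhere in the genome; none of the listed genes lies in the interval. Their counts are to be read against the 17.3% of all genes called higher and 14.2% called lower in Dp16_2xIFNRs over WT, and the 16.6% and 13.2% in Dp16 over WT. Of 16 purine synthesis genes, where Gart works, 13 were higher and 1 lower in Dp16_2xIFNRs over WT, and 11 were higher and 1 lower in Dp16, with medians of 0.34 in both against -0.01 for all genes. Mthfd1, which supplies formyl groups, was at 0.67 ± 0.10 (SE) in Dp16_2xIFNRs and 0.73 ± 0.10 in Dp16, and Paics, which acts in the same route, at 0.53 and 0.54. The salvage enzyme gene Hprt was at 0.55 in both. Of 22 measured genes for assembly of the replication fork, where Donson works, 22 were higher in each genotype, with a median of 0.87 in both. Cdc45, which encodes a component of the replicative helicase, was at 1.24 ± 0.16 in Dp16_2xIFNRs and 1.31 ± 0.16 in Dp16, and the helicase subunit genes Mcm3 and Mcm5 were at 0.85 and 0.87 in Dp16_2xIFNRs and at 0.84 and 0.90 in Dp16. With the erythroid, neutrophil and B cell scores described below as terms in the fit, none of these 6 genes was called. Of all 18634 tested genes, 1 was called in Dp16_2xIFNRs over WT and 0 in Dp16 over WT in that fit. The missing calls are therefore not particular to these 6 genes. Cdc45 was then at 0.13 and 0.14, Mcm5 at -0.05 in both, Mcm3 at 0.32 and 0.31, Mthfd1 at 0.08 and 0.11, Paics at 0.07 and 0.05 and Hprt at 0.47 and 0.46 in Dp16_2xIFNRs and Dp16 over WT.

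Of 20 genes for SR proteins and speckle splicing factors, where Son works, 6 were higher and 1 lower in Dp16_2xIFNRs over WT, and 6 higher and 2 lower in Dp16, with medians of 0.16 and 0.12. The splicing factor genes Srsf3, Srsf4 and Srsf1 were at 0.45, 0.30 and 0.30 in Dp16_2xIFNRs and at 0.37, 0.35 and 0.29 in Dp16. Of 21 genes of clathrin-mediated endocytosis, where Synj1 works, 4 were higher and 5 lower in each genotype, shares near or somewhat above those over all genes, with medians of -0.12 and -0.11. The scaffold gene Itsn2 fell by 0.61 in Dp16_2xIFNRs and by 0.56 in Dp16, the phosphatase gene Inpp5d was at -0.45 and -0.39, and the clathrin assembly gene Picalm at 0.53 and 0.54. Of 5 measured paralogues of the 9 genes, 0 were called in any comparison by edgeR, and 1 of them had an unadjusted p under 0.05 over WT, Tmem50a, at 0.21 in Dp16_2xIFNRs (adjusted p = 0.0528) and 0.18 in Dp16 (adjusted p = 0.113). Cryz, Synj2, Gcfc2 and Vat1 were the others, with Cryz at 0.21 and 0.25 and Synj2 at -0.20 and -0.14. In Dp16_2xIFNRs over Dp16, 0 genes of these 5 lists were called, with medians from -0.04 to 0.02.

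Erythroid, neutrophil and B cell markers moved with both genotypes that carry the extra interval, while T cell markers moved little. All 12 erythroid and all 12 neutrophil markers were higher and all 10 B cell markers lower in each genotype over WT, and none of these was called between Dp16_2xIFNRs and Dp16. Of 8 T cell markers, 0 were called higher and 1 lower in each genotype over WT, with medians of 0.03 in Dp16_2xIFNRs and 0.04 in Dp16. All 6 megakaryocyte and platelet markers and 4 of 7 red pulp macrophage markers were called higher in each. Over all genes, 17.3% were called higher and 14.2% lower in Dp16_2xIFNRs, and 16.6% and 13.2% in Dp16. The summed erythroid level, here over the library total without TMM scaling, was 10880 to 19860 CPM in Dp16_2xIFNRs, 10690 to 18320 in Dp16 and 2388 to 10300 in WT. No marker of these lists was at 0 in all libraries. With erythroid, neutrophil and B cell scores as terms in the fit, 0 of the 9 genes were called over WT in either genotype (4 in each at an unadjusted p under 0.05, against 4.74% of all genes in Dp16_2xIFNRs and 4.21% in Dp16 in that fit), none changed sign, and the median standard error of the 9 was 0.30 for Dp16_2xIFNRs and 0.32 for Dp16, against 0.09 without these terms. Without these terms, 8 of the 9 genes in Dp16_2xIFNRs and 9 in Dp16 had an unadjusted p under 0.05, against 40.5% and 39.1% of all genes. With the scores as terms, A930006K02Rik was at -0.95 in Dp16_2xIFNRs over Dp16 (95% interval -1.31 to -0.60, adjusted p = 0.0699 by edgeR). That interval lies just below the log2 copy ratio of -0.585. Over WT it was then at 2.05 (0.80 to 3.31) in Dp16, above the copy ratio. In Dp16_2xIFNRs it was at 1.10 (-0.09 to 2.28), which holds both equality and the copy ratio. The scores separate the genotypes from WT, so cell composition and copy number cannot be told apart for the comparisons with WT.

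Per length, in the authors' RPKM, Son was the highest of the 9 with 43.2 ± 5.04 in Dp16_2xIFNRs, 45.0 ± 4.67 in Dp16 and 39.7 ± 3.80 in WT (SD, n = 6). Gart followed with 37.5 ± 2.11, 38.4 ± 2.09 and 23.3 ± 1.32 in the same 3 genotypes, and Tmem50b with 24.7 ± 3.16, 24.04 ± 3.17 and 18.4 ± 1.82. Donson came next in the genotypes with the extra interval (20.3 ± 2.92 and 19.4 ± 1.23) and Paxbp1 after it (18.4 ± 3.41 and 18.3 ± 1.20), while in WT Paxbp1 (14.6 ± 1.81) stood before Donson (13.1 ± 1.69). The ranges of these 2 genes overlapped in each genotype, so their order is not settled. Cryzl1 had 12.2, 11.1 and 6.93 RPKM in Dp16_2xIFNRs, Dp16 and WT, Synj1 8.44, 8.76 and 6.22, A930006K02Rik 3.09, 5.50 and 3.06, and Dnajc28 1.63, 1.69 and 1.33. Tmem50b also overlapped its next lower gene in each genotype, as did Cryzl1 in Dp16_2xIFNRs and WT, and Son and Paxbp1 in Dp16_2xIFNRs.

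Among tested genes other than the 9, the one whose level followed A930006K02Rik most closely over the 18 libraries was Ifnar2 (Pearson's r of 0.80 on log2 CPM). The shared genotypes shape this result. After it came Zfp934 (0.78) and Efnb3 (0.74), on other chromosomes. For the other genes the closest were Atp5o for Cryzl1 (0.97), Fam135b for Gart (0.97), Emilin2 for Donson (0.95), Clec4e for Tmem50b (0.93), Bach1 for Synj1 (0.91), Kin for Paxbp1 (0.87), Mx1 for Son (0.85) and 2310022A10Rik for Dnajc28 (0.76). Each is the highest over the 18634 tested genes after the 9 were left out, so the 9 were not compared with each other. These values are given as a description, since libraries of a genotype share their level.

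No difference between the sexes was detected, with 3 animals of each sex per genotype. In a test of the interaction of sex and genotype, 0 of the 9 genes and 0 of all genes were called by edgeR for Dp16_2xIFNRs over Dp16 or Dp16 over WT, and 0 of the 9 had an unadjusted p under 0.05. A930006K02Rik was at -0.88 in males alone and -0.79 in females alone for Dp16_2xIFNRs over Dp16, neither called (adjusted p = 1 in both by edgeR).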

How the data were processed

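Poly(A) RNA of 18 spleens was sequenced strand-specifically in read pairs, per the labels' protocols. The deposited read counts per gene are raw whole numbers made by the authors, and the deposited RPKM values were made by the authors from counts, gene length and library total, a relation that held for 11538 genes with a largest relative deviation of 1.9e-15. HISAT2 2.1.0, HTSeq 0.6.1 and GRCm38 are named per the submitters' processing notes, and GENCODE M24 gene models per the label of the deposited table; the strand setting is not given in the sources used here. Positions come from GENCODE vM21 (GRCm38), matched for 99.6% of identifiers. Libraries held 33998427 to 53021480 counts. A count of 0 allows up to 3 counts (0.0566 to 0.0882 CPM over the library total, without TMM scaling), for counting error only. No pair of libraries of a genotype agreed within sampling noise: over the 45 pairs, chi-square divided by its degrees of freedom ran from 35.1 to 200.4.

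Genes kept by filterByExpr (18634) entered 1 edgeR 4.0.16 quasi-likelihood fit (robust, TMM, genotype and sex, all 18 libraries, R 4.3.3), with calls below 0.05 after Benjamini-Hochberg adjustment over all of them. Standard errors are the log2 fold change over the root of F, and 95% intervals use the fit's degrees of freedom. On simulated counts the fit was checked against known changes. Named genes are the 9 genes, the 4 receptors and the listed neighbours. From each partner list the 3 with the smallest p in Dp16 over WT were taken. From the other interval genes the 3 with the smallest p in Dp16_2xIFNRs over Dp16 were taken. The genes and lists were chosen with earlier results of these data known. No source used here says whether libraries come from separate litters, and p-values measure the spread between these samples.

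Alternatives were RLE, upper quartile and other scalings, DESeq2 1.42.0, limma 3.58.1 (voom, and log2 RPKM with 0.1 or 1 added), other filters, thresholds and terms (no sex term, the replicate number, a code in the library descriptions whose meaning is not given, or cell scores), and omission of each library. Chosen after seeing the data were the adjacent pairs, scaling to interval genes, and leaving out the 3 libraries of age label 17.1 or the 4 in which Gm42418 took above 4%.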

Additional observations from a re-analysis of the deposited data

Results flagged for a closer look

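Among 27 sets of 6 libraries (9 genes in 3 genotypes), 4 held a library whose gap to the nearest other took more than 0.625 of the whole range, a limit that chance passes in about 1 of 20 sets. Synj1 was at 89.5 CPM in Dp16_2xIFNRs replicate 1, with the next library at 61.1 CPM. Son was at 627.1 CPM in Dp16 replicate 2, with the next at 521.6 CPM. A930006K02Rik was at 4.9 CPM in WT replicate 1, with the next at 3.4 CPM. Gart was at 100.7 CPM in WT replicate 2, with the next at 88.5 CPM.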

How the results depend on the processing

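Between Dp16_2xIFNRs and Dp16, 0 of the 9 genes were called under all 39 settings. All genes called numbered 4, against 0 with the description code as a block (receptors at log2 fold changes of -0.57 to -0.43), in males alone and in females alone, 2 without the libraries of age label 17.1, and 3 to 4 with 1 library left out. Over WT, all genes called in Dp16_2xIFNRs (5860) numbered 3846 at an adjusted p below 0.01, 3208 in males, 260 in females and 1 with the 3 cell scores, and 4938 to 6064 with 1 library left out; of the 9 genes 7 were called, with 3 in females, 0 with the scores and 7 for every library left out. In Dp16 (5553) they numbered 3551, 2520, 817 and 0 in the same order, 2527 with the description code and 4779 to 5781 with 1 library left out; of the 9 genes 8 were called, with 5 in males, 4 in females, 0 with the scores and 8 to 9 with 1 library left out. Adjacent pairs called (2 in Dp16_2xIFNRs over Dp16, 4 in Dp16 over WT, 3 in Dp16_2xIFNRs over WT) numbered 0 and 0 without the libraries rich in Gm42418, 0 and 0 without those of age label 17.1, and 0 to 2, 2 to 5 and 3 to 4 with 1 library left out; sets of 3 against 3 cannot go below an exact p of 0.1. The share of calls that were higher over WT was 43.7% and 43.4% with upper quartile scaling and 36.9% and 36.1% on log2(RPKM + 0.1), where the median of all genes was -0.12 and -0.13 (Dp16_2xIFNRs and Dp16).

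Between Dp16_2xIFNRs and Dp16, signs turned round only for small log2 fold changes of uncalled genes. Paxbp1 (0.0011) was at -0.0002 with upper quartile scaling, -0.0062 with voom, -0.0069 and -0.0058 on log2 RPKM with 0.1 and 1 added, -0.24 with the description code, -0.030 with the scores, -0.15 in females, -0.037 without age label 17.1 and -0.067 to 0.068 with 1 library left out. Dnajc28 was at 0.10 with the description code, 0.21 in females, 0.0086 without age label 17.1 and -0.17 to 0.032 with 1 library left out. Donson was at -0.0575 and -0.036 and Itsn1 at -0.15 and -0.087 with the description code and in females, and at -0.0066 to 0.11 and -0.15 to 0.13 with 1 library left out. Synj1 was at 0.044 in males and -0.19 to 0.0003 with 1 library left out. Without the libraries rich in Gm42418, Tmem50b was at -0.012 and Son at 0.039. Over WT in Dp16_2xIFNRs, Ifnar2 was at -0.025 with 0.1 added and -0.0245 with 1 added on log2 RPKM and at -0.088 with the scores, where Mcm5 was at -0.048, Synj2 at 0.11 and Picalm at -0.089. In Dp16, with the scores, Mcm5 was at -0.048, Synj2 at 0.18 and Picalm at -0.076, and Cryz was at -0.028 with the description code. Of these, Mcm5 and Picalm were called over WT in the main fit. They were there at 0.87 and 0.53 in Dp16_2xIFNRs and at 0.90 and 0.54 in Dp16. The cause was not tested.

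Same-numbered libraries of different genotypes did not deviate together (mean r of 0.019 over 18 pairs, against -0.0038 over 90 others). With the replicate number as a block, 0, 7 and 8 of the 9 genes and 4, 5796 and 5534 of all genes were called (Dp16_2xIFNRs over Dp16, Dp16_2xIFNRs over WT, Dp16 over WT), and Paxbp1 was at -0.0069. Depth limits Dnajc28, A930006K02Rik and the genes between Paxbp1 and Ifnar2.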
